A study of Mus musculus with 35 samples.

Results

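The classic maternally methylated imprinted genes of the mouse are described here by their histone marks in developing oocytes. The 10 genes, chosen by name, were Peg3, Peg10, Mest, Snrpn, Plagl1, Grb10, Igf2r, Impact, Gnas and Kcnq1, out of 21631 protein-coding genes on chromosomes 1 to 19 and X. H3K4me3, H3K36me3 and H3K27me3 were mapped by CATCH-seq, in which small amounts of unfixed chromatin are digested with micrococcal nuclease and precipitated in the presence of carrier DNA. The cultured stages all came from the embryonic stem cell line H18, a single line labelled wild type that carries Prdm1-mVenus and Dppa3-ECFP reporters. They were the d4c7 oogonia-like cells (c7), the d4c13 oocyte-like cells (c13) and the d4c34 oocyte-like cells (c34). Fetal oocytes of embryonic day E18.5 came from wild-type mice that carried these reporters, and BDF1 wild-type mice gave germinal vesicle (GV) oocytes, which are fully grown and arrested in meiosis. The strain or line named for the GV oocytes differs from that of the other stages and cannot be told apart from stage in comparisons with GV oocytes.

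At an imprinted gene only the copy from one parent is active, and in this class the egg supplies a copy that is silenced or switched by DNA methylation at a germline methylated region. That methylation is absent from fetal oocytes and is laid down after birth, as oocytes grow, by DNMT3A with DNMT3L. DNMT3A binds H3K36me3, a mark that SETD2 leaves on transcribed gene bodies, and is repelled by H3K4me3, the mark of active and poised promoters. Most germline methylated regions lie inside transcription units that the growing oocyte reads through from a start further upstream. H3K27me3, the mark of Polycomb repression, seldom shares a nucleosome with H3K36me3.

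The data were 13 peak lists, 1 for each mark at each stage, c7 having H3K27me3 only, while the labels name 35 libraries, 9 of them input. In GV oocytes they name 1 library each for H3K4me3 and H3K27me3, against 4 for H3K4me3 in c13 and 2 for every other mark and stage, so the GV counts of those marks rest on single libraries. A list gives peak positions only, in steps of 1 kb (H3K4me3) or 10 kb (H3K36me3 and H3K27me3). Depth and the calling threshold are unknown and no list has a replicate, so the spread between replicates is unknown and no test was made. H3K4me3 peaks covered 254 Mb in c13, 135 Mb at E18.5, 259 Mb in c34 and 645 Mb in GV oocytes. H3K36me3 covered 633 to 1122 Mb and H3K27me3 720 to 1053 Mb per list. Of the H3K36me3 length, 79.8% in c13 and 34.4% at E18.5 lay in peaks of at least 1 Mb, against 4.77% (c34) and 4.80% (GV oocytes). Among 12 oocyte and germ cell markers, 9 had H3K4me3 at the gene start in c13 (70.2% of all genes) and 7 at E18.5 (59.8%). In c34 12 had it (64.3%) and in the GV oocytes 11 (72.1%). Among 10 markers of ovarian somatic cells 5 had it at each of those stages, and their part in the results was not tested. In bulk samples, fewer cells with a mark and less of the mark per cell cannot be told apart, and the lists do not separate the parental alleles.

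Gene positions and starts are those of RefSeq on GRCm38.p6, whose primary assembly the peaks share. A gene start here is the most upstream start that the RefSeq promoter table gives, and 7 of the 10 genes have one. For Peg10, Impact and Kcnq1 either annotated end was used, as for 4357 of all genes, so distances for them run along the chromosome and not along the transcript. Several of these genes have more than one start, and textbook accounts place the germline methylated region at or beside a particular one. Those starts were start 1 of Peg3, the lower end of Peg10 in chromosome coordinates, start 2 of Mest, start 4 of Snrpn, start 1 of Plagl1, start 2 of Grb10, start 2 of Gnas (exon 1A), and the starts of the noncoding RNAs Airn, inside Igf2r, and Kcnq1ot1, inside Kcnq1. A single start was taken per locus, so any further methylated region of a locus, as at Gnas, is not covered. These 9 starts were chosen with their values known, so what follows on them is a description. No coordinates of the methylated regions were used here. Start 4 of Snrpn was taken because it is shared with Snurf and is uncertain, and the other placements were not checked either. Impact was left out of the 9. The table holds no start for it, but it holds none for Peg10 either, whose lower end was used. At the lower end of Impact H3K4me3 was called in c13, c34, E18.5 and GV oocytes. H3K36me3 lay over that end in c13, c34 and GV oocytes. Whether the methylated region of Impact lies at that end was not established here. Separate H3K4me3 peaks lay inside the gene, up to 20.3 kb above that end, in c13 and at E18.5. The c34 peak over the lower end covered that place too, and the GV peak stopped at 12.3 kb. The counts at the 9 starts depend on leaving Impact out.

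The sequences that matter most are pairs of starts of the same gene, an upstream one that kept H3K4me3 in GV oocytes and an inner one, at the methylated region, where no peak was called within 1 kb. Capitals mark TGCCGC, the core motif of ZFP57, which guards imprinted methylation after fertilisation. It is written as GCGGCA where it lies on the opposite strand, and both strands were searched. Each sequence runs from 250 bases before to 50 bases after the start, 5′ to 3′ on the gene's strand, from RefSeq on GRCm38.p6.

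For Mest, the starts lie 4.54 kb apart, and the inner promoter holds 17 CpG dinucleotides and 2 motifs against 8 CpG and 0 motifs in the upstream one.
Mest start 1, chr6:30733256-30733555, plus strand: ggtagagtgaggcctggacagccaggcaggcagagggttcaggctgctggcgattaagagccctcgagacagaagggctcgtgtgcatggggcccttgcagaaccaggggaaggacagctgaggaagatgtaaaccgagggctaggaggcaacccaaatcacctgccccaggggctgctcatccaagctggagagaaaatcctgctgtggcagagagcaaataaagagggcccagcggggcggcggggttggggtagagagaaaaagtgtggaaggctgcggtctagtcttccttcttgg
Mest start 2, chr6:30737800-30738099, plus strand: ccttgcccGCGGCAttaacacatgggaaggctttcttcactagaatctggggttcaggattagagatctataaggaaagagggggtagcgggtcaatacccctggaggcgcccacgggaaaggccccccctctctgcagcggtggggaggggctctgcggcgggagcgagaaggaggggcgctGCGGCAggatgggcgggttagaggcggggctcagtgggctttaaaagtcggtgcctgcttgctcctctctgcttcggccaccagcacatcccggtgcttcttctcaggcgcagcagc

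For Grb10, the starts lie 9.45 kb apart, and here the upstream promoter is the CpG-rich one, with 45 CpG and 1 motif against 9 CpG and 0 motifs at the inner start.
Grb10 start 1, chr11:12037371-12037670, minus strand: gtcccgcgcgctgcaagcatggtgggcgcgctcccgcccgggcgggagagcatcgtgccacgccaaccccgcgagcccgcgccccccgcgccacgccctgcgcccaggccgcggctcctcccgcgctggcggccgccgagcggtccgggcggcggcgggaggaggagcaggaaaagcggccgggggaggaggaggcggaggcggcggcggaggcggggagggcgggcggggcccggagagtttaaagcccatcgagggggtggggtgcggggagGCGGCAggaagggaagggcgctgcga
Grb10 start 2, chr11:12027922-12028221, minus strand: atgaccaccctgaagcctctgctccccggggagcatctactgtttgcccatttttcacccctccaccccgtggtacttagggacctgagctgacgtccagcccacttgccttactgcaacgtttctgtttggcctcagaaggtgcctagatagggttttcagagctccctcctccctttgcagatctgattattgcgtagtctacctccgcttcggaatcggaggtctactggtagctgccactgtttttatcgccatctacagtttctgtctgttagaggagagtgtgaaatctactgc

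For Gnas, start 1 (the Nesp start) and start 2 (exon 1A) lie 43.4 kb apart. They hold 16 and 27 CpG and 0 motifs each.
Gnas start 1, chr2:174284070-174284369, plus strand: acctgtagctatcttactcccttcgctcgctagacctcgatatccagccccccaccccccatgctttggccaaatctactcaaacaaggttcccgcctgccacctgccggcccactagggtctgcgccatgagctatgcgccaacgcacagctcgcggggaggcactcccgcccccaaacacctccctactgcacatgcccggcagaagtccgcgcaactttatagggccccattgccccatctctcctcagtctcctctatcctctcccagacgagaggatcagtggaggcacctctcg
Gnas start 2, chr2:174327499-174327798, plus strand: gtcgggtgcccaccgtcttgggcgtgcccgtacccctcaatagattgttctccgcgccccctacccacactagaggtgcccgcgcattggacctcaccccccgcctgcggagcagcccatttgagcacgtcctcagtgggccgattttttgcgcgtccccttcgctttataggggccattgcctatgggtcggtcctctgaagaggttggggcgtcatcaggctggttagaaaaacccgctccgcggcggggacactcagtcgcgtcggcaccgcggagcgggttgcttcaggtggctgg

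Plagl1 and Snrpn are shown because their starts at the methylated region had no H3K4me3 peak within 1 kb in either c34 or GV oocytes. These promoters hold 26 and 7 CpG, with 1 motif each. The Kcnq1ot1 start had no such peak in either stage as well, and its promoter, which is not printed, holds 9 CpG and 0 motifs.
Plagl1 start 1, chr10:13090582-13090881, plus strand: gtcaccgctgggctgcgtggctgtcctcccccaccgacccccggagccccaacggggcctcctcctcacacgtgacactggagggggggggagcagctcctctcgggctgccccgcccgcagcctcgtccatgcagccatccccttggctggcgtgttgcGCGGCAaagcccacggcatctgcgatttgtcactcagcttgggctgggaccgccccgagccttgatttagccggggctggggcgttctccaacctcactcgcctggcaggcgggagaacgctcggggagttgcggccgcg
Snrpn start 4, chr7:60005150-60005449, minus strand: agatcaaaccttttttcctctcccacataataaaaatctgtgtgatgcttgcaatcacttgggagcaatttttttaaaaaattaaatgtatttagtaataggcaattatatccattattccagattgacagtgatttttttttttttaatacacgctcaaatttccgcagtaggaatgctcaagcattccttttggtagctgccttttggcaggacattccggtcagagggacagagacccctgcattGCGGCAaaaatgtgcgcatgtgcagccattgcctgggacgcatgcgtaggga

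Over all 32619 promoters of this length in the table, the median was 7 CpG with quartiles of 3 and 20. At least 1 TGCCGC on either strand was found in 11.7% and at least 2 in 1.54%. The letters were not in the windows of Peg3 (13 CpG), Airn (3 CpG) and Kcnq1ot1 (9 CpG), which says nothing of their surroundings. Among the starts at methylated regions that have a sequence in the table, CpG counts ran from 3 at Airn to 27 at Gnas start 2.

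At the 9 starts, H3K4me3 was called most often in c13 and at E18.5, and H3K36me3 most often in c34 and GV oocytes. H3K4me3 within 1 kb was called at 9 of 9 in c13 (58.4% of all 32579 starts), at 9 at E18.5 (47.0%), at 6 in c34 (52.9%) and at 1 in the GV oocytes (63.1%). A peak of H3K36me3 lay over 6 of them in c13 (66.6% of all starts), 2 at E18.5 (20.4%), 9 in c34 (51.4%) and 9 in the GV oocytes (48.4%). The 8 starts other than Peg10 carried H3K4me3 at E18.5 and not in GV oocytes, a class with 5.01% of all starts and 10.7% of the 15326 starts that were called at E18.5. The GV list, with H3K4me3 at 1 of these starts, was the longest of that mark, covering 645 Mb against 135 Mb at E18.5. Asking for a peak over the start itself left 0 in GV oocytes, and a window of 5 kb gave 3. Without H3K36me3 peaks of at least 1 Mb, 2 of the 9 starts were covered in c13 and 1 at E18.5. Shares of all starts are not given under these alternatives.

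**Figure D1:**
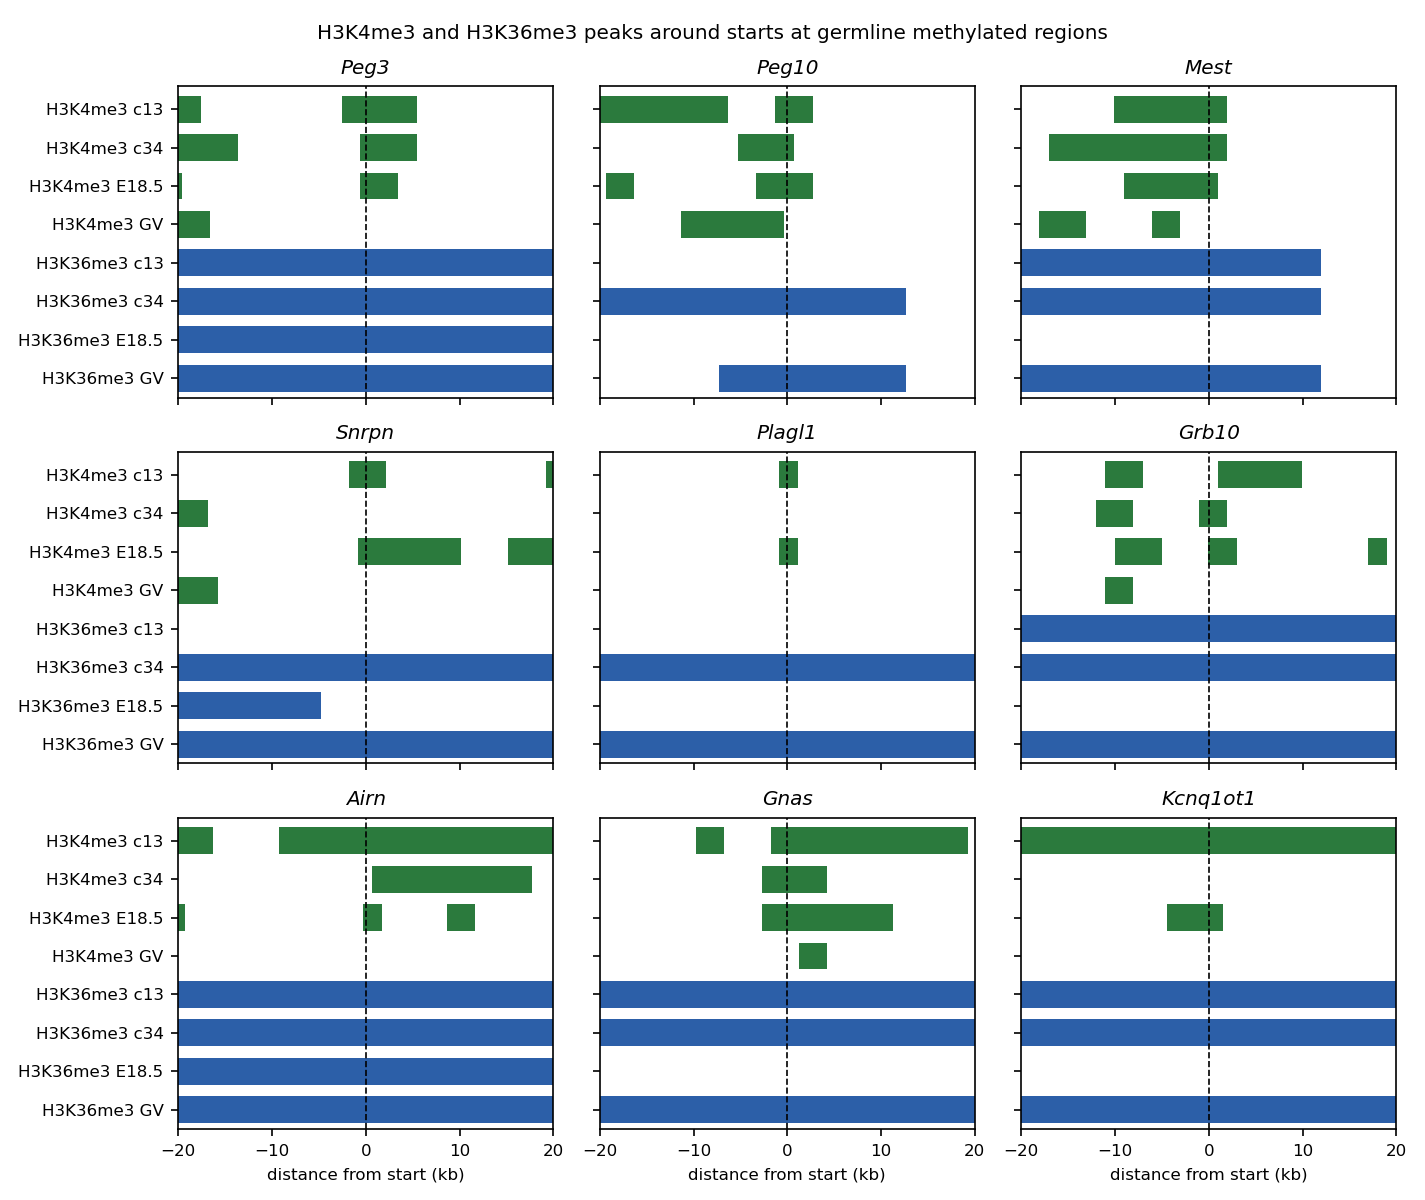
Each panel shows peaks of H3K4me3 (green) and H3K36me3 (blue) within 20 kb of a start at a germline methylated region, with the stages as rows and the dashed line at the start. Distance runs in the direction of transcription, except at Peg10, where it runs along the chromosome. In the GV row of H3K4me3 no bar reaches the dashed line, while every GV row of H3K36me3 crosses it.

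H3K36me3 without H3K4me3 was found at 8 of the 9 starts in GV oocytes (15.0% of all starts) and at 3 in c34 (15.0%). It was found at 0 in c13 (20.6%) and at 0 at E18.5 (11.8%). Leaving out the Snrpn start, the counts were 7 of 8 in GV oocytes and 2 in c34. The 3 in c34 were Snrpn, Plagl1 and Kcnq1ot1. They carried H3K4me3 in c13 and not in c34, a class with 11.3% of all starts and 19.4% of the 19031 starts called in c13. H3K36me3 was called in c34 and not in c13 at 3 starts, Peg10, Snrpn and Plagl1 (9.34% of all starts). The other 6 starts carried both marks in c34 (36.4% of all starts), and 0 carried H3K4me3 alone (16.5%). In c13 both marks lay at 6 starts (46.0%), and in GV oocytes at Peg10 (33.4%), with 0 there carrying H3K4me3 alone (29.7%). In that respect c34 lay apart from GV oocytes at Peg3, Mest, Grb10, Airn and Gnas, which had both marks in c34 and only H3K36me3 in GV oocytes. Without replicates, the error of this difference is unknown. Some of these calls hang on the window of 1 kb. In c34 the nearest peak lay 0.69 kb from the Airn start. In GV oocytes the nearest peaks lay 1.25 kb from the Gnas start and 3.05 kb from the Mest start.

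At E18.5, 7 of the 9 starts had H3K4me3 and no H3K36me3 (38.5% of all starts), and only Peg3 and Airn had both (8.59%). H3K36me3 was called at 7 of 9 in GV oocytes and not at E18.5, as at 39.1% of all starts. H3K27me3 lay over 5 of the 9 starts in c7 (43.3% of all starts), 6 in c13 (60.9%), 5 at E18.5 (39.2%), 0 in c34 (44.9%) and 0 in the GV oocytes (28.8%). Peg10, Mest, Grb10 and Gnas carried it in c7, c13 and at E18.5. The Peg3, Snrpn and Airn starts lay in no H3K27me3 peak at any of the 5 stages.

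Counted at the most upstream start of each gene, the picture was flatter. H3K4me3 was called at 9 of the 10 genes in c13 (70.2% of all genes), 9 at E18.5 (59.8%), 8 in c34 (64.3%) and 7 in the GV oocytes (72.1%). The GV count lay close to that of all genes. It was 4 with only peaks at least as wide as the median, a rule for which no share of all genes is given. Over the whole body the median H3K4me3 coverage of the 10 genes was 21.1% in c13, 15.4% at E18.5, 12.0% in c34 and 1.64% in the GV oocytes. All protein-coding genes had medians of 12.4%, 5.91%, 10.2% and 14.5% at those stages, in that order.

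H3K36me3 covered at least 20% of the body of 7 genes in c13 (67.8% of all genes), 2 at E18.5 (22.1%), 10 in c34 (63.5%) and 9 in the GV oocytes (62.2%). The counts in c13 and at E18.5 lay close to those of all genes. Without peaks of at least 1 Mb, 2 genes remained called in c13, Peg3 and Grb10, and 1 at E18.5, Peg3. H3K27me3 covered at least 20% of 7 bodies in c7 (41.4% of all genes), 7 in c13 (54.2%), 5 at E18.5 (35.3%), 1 in c34 (39.5%) and 0 in the GV oocytes (26.6%). The 1 in c34 was Kcnq1, and with at least 50% of the body there were 0. The shares of all genes belong to the main rule and not to these alternatives.

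For each gene, stages were also compared in pairs, and since several pairs share a list their counts are not independent. Between c34 and GV oocytes, H3K4me3 at the gene start was called only in c34 at 1 gene, Peg3 (3.07% of all genes), and only in GV oocytes at 0 (10.8%). Between E18.5 and GV oocytes it was called only at E18.5 at 2, Peg3 and Plagl1 (4.2%), and only in GV oocytes at 0 (16.4%). The c13 and E18.5 lists called the same 9 genes (59.3% of all genes in both), where 10.9% of all genes were called only in c13 and 0.509% only at E18.5. Plagl1 was the 1 gene called in c13 and not in c34 (9.5%), and 0 were called the other way (3.63%).

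For H3K36me3, c34 and GV oocytes shared 9 of the bodies called (57.0% of all genes), with Snrpn called only in c34 (6.46% of all genes) and 0 only in GV oocytes (5.23%). From E18.5 to GV oocytes 7 bodies were called only in the latter (48.4%) and 0 only in the former (8.31%). In c13 and not at E18.5 there were 5 (55.0%), and 0 the other way (9.24%). Peg10, Snrpn and Plagl1 were the 3 called in c34 and not in c13 (11.2%), with 0 the other way (15.6%).

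For H3K27me3, the body of Kcnq1 was the 1 called in c34 and not in GV oocytes (15.8% of all genes), with 0 the other way (2.91%). The 5 bodies called at E18.5 were all uncalled in GV oocytes (19.8%), and 0 were called the other way (11.1%). Of the 7 called in c13, 6 were uncalled in c34 (22.2%) and 2, Plagl1 and Igf2r, at E18.5 (28.4%), while 0 were called in c34 only (7.56%) or at E18.5 only (9.49%). Between c7 and c13, Snrpn was called only in c7 (8.83%) and Igf2r only in c13 (21.6%). Between c7 and E18.5, Snrpn and Plagl1 were the 2 called only in c7 (13.3%), and 0 were called only at E18.5 (7.23%).

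**Figure D2:**
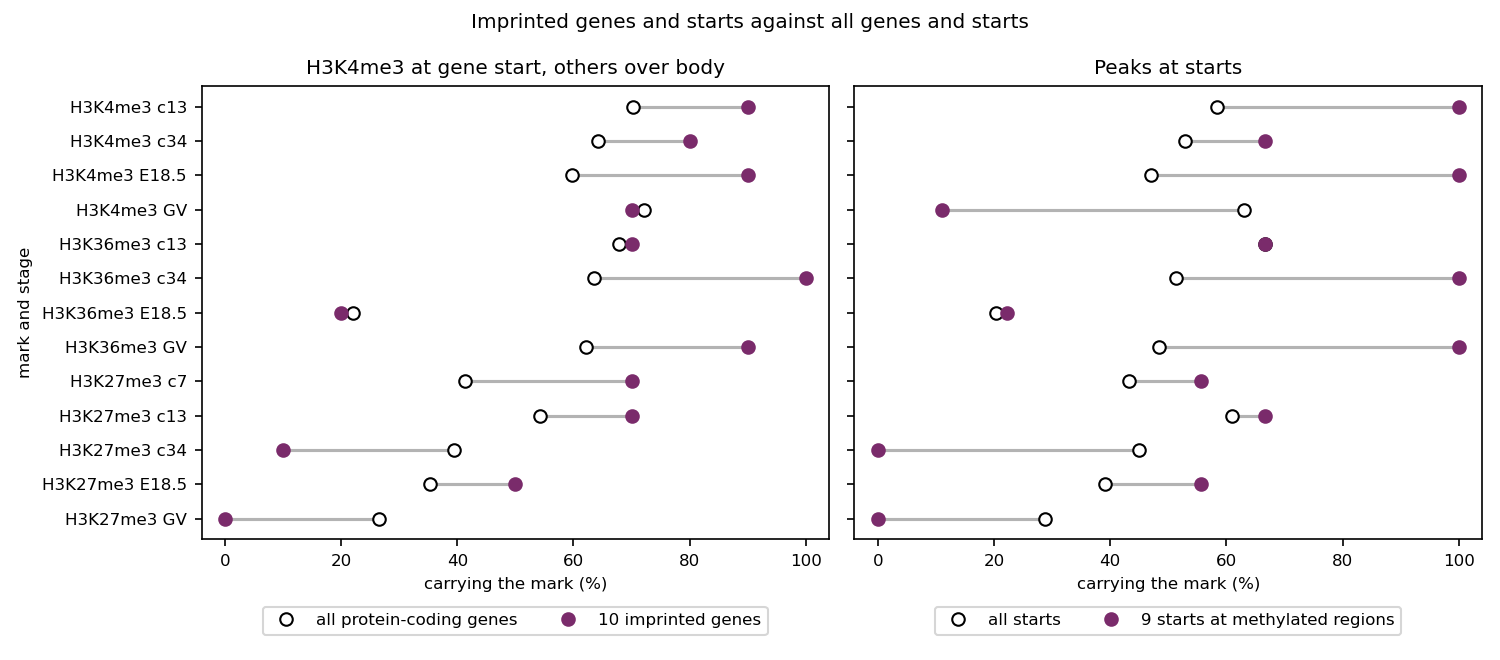
Share of genes or starts with each mark in each list, in percent. On the left are the 10 imprinted genes (filled) and all 21631 protein-coding genes (open); on the right are the 9 starts at methylated regions (filled) and all 32579 starts (open). At the starts, H3K4me3 lies at 9 of 9 in c13 and at E18.5 and at 1 in GV oocytes, where 63.1% of all starts have it, and H3K36me3 lies at 9 of 9 in c34 and GV oocytes.

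Pooled over the 10 bodies, 1178 kb in all, H3K36me3 alone covered 61.0% in c34 (46.5% over all gene bodies) and 67.0% in the GV oocytes (52.9%). H3K27me3 alone covered 0.144% in each, against 24.1% and 19.3% over all gene bodies. Snrpn (468 kb) and Kcnq1 (320 kb) were the longest of the 10 bodies. Without Kcnq1, H3K36me3 alone covered 57.8% in c34 and 55.4% in the GV oocytes, so the GV value then lay close to that of all gene bodies. H3K27me3 alone then covered 0.197% in each. At E18.5 H3K27me3 alone covered 38.5% (25.1% over all gene bodies) and H3K36me3 alone 16.5% (15.7%). That order rests on Kcnq1, the body that adds most of the H3K27me3 length, since without it H3K27me3 alone covered 15.5% and H3K36me3 alone 22.6%. In c13 42.7% of the pooled length lay in peaks of both marks, or 27.2% without Kcnq1, against 36.1% over all gene bodies. At E18.5 0% did, against 7.79%.

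**Figure D3:**
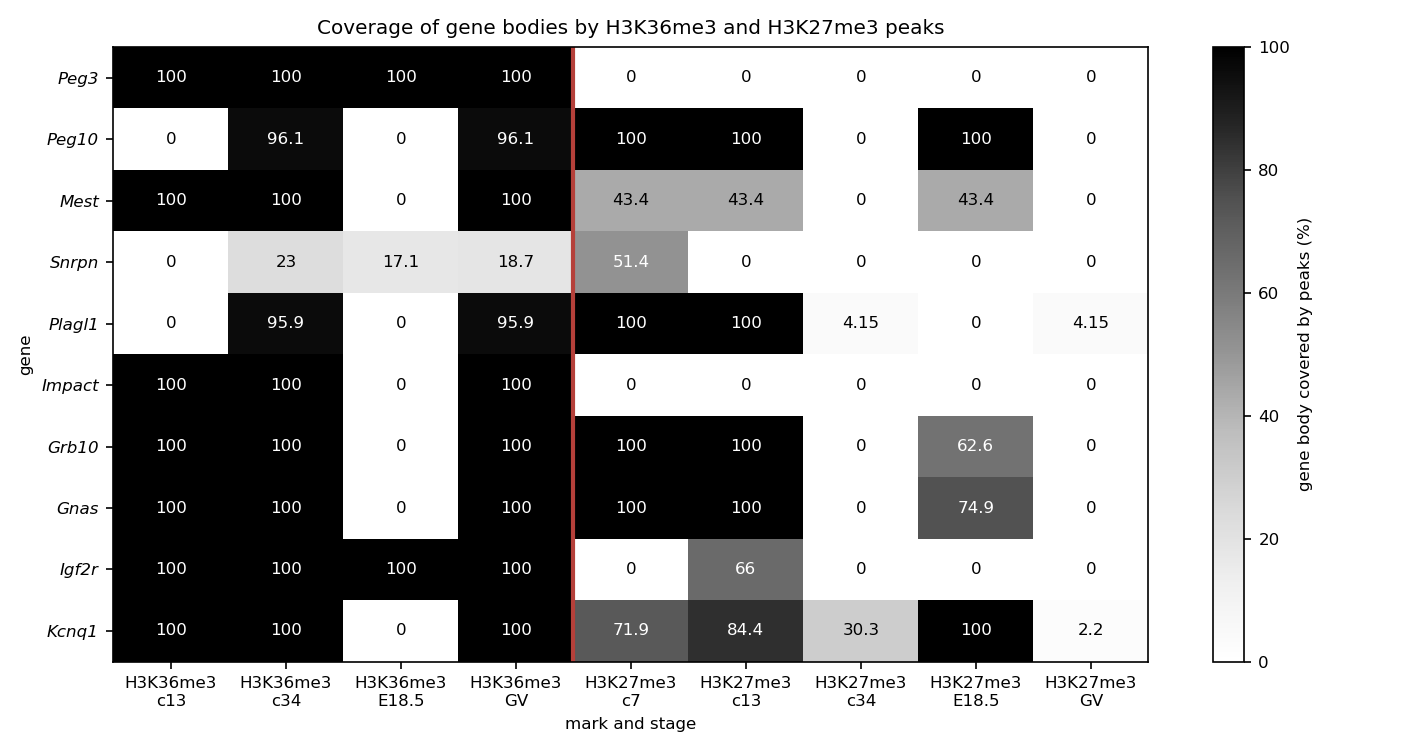
Percent of each gene body covered by H3K36me3 peaks (left of the red line) and H3K27me3 peaks (right of it), by stage, with darker cells for higher coverage. Every gene but Snrpn is covered to at least 95.9% by H3K36me3 in c34 and GV oocytes, and at most 4.15% by H3K27me3 in GV oocytes.

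Peg3 encodes a zinc finger protein, expressed from the paternal copy, that affects growth and maternal behaviour. It lies at chr7:6703892-6730462 on the minus strand. The H3K4me3 peak over its start was 8 kb wide in c13, 4 kb at E18.5 and 6 kb in c34. In GV oocytes no peak lay closer than 16.6 kb. H3K36me3 covered 100% of the body at all 4 stages, in peaks of 630 kb, 200 kb, 670 kb and 290 kb in c13, c34, E18.5 and GV oocytes. Its body held 0% H3K27me3 in all 5 lists. Peg3 was the only one of the 10 genes whose body had the same coverage by H3K36me3, and by H3K27me3, in every list of that mark. Its neighbour Usp29 was covered by H3K36me3 to 100% in c13 and at E18.5, 23.9% in c34 and 19.7% in the GV oocytes. H3K27me3 over Usp29 was 71.8% in c34 and 67.6% in the GV oocytes and 0% at the other stages.

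Peg10 derives from a retrotransposon and is needed for the placenta. It lies at chr6:4747306-4760517, and its lower end is 102 bp from the end of Sgce, an imprinted neighbour that encodes epsilon-sarcoglycan. The H3K4me3 peak at that end was 4 kb wide in c13, 6 kb at E18.5, 6 kb in c34 and 11 kb in the GV oocytes. The GV peak stopped 0.306 kb short of the Peg10 end and lay on the Sgce side, so 0% of the Peg10 body was covered there, against 20.4% in c13, 5.26% in c34 and 20.4% at E18.5. H3K36me3 covered 0% of the body in c13 and at E18.5, and 96.1% at both later stages. The peak measured 80 kb in c34 but 20 kb in GV oocytes, and H3K36me3 over Sgce was 92.2% in the former and 9.89% in the latter. So c34 and GV oocytes had equal H3K36me3 coverage of Peg10 and unequal coverage of its neighbour. H3K27me3 covered 100% of Peg10 in c7, c13 and at E18.5 and 0% in c34 and GV oocytes. In both of these later stages it still covered 90.1% of Sgce, its edge lying 7.31 kb from the Peg10 end.

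Mest encodes a hydrolase-like protein of mesoderm, expressed from the paternal copy, at chr6:30733506-30748466 on the plus strand. A single H3K4me3 peak of 12 kb in c13, 10 kb at E18.5 and 19 kb in c34 spanned both starts printed above. In GV oocytes the peak over start 1 was 3 kb wide and start 2 lay 3.05 kb from the nearest peak, so the upstream start kept the mark and the inner one did not. Its body was wholly under H3K36me3 (100%) in c13, c34 and GV oocytes and at 0% at E18.5. In c34 and GV oocytes the peaks had the same edges, 120 kb apart, and in c13 the peak was 2370 kb wide. H3K27me3 covered 43.4% of the body in c7, c13 and at E18.5, including both starts, and 0% in c34 and GV oocytes. The neighbour Copg2 held H3K36me3 over 66.5%, 66.5%, 64.9% and 61.9% in c13, c34, E18.5 and GV oocytes and H3K27me3 over 0% at every stage.

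Snrpn encodes a spliceosome protein of the brain and shares its start 4 with Snurf. As annotated it runs over chr7:59982495-60450177 on the minus strand, 468 kb with 3 further starts upstream. None of those 3 starts had an H3K4me3 peak within 1 kb at any stage. Start 4 had a peak of 4 kb in c13 and 11 kb at E18.5, and in c34 and GV oocytes the nearest peaks lay 16.8 kb and 15.8 kb away. H3K36me3 covered 0% of the body in c13, 17.1% at E18.5, 22.99% in c34 and 18.7% in the GV oocytes, so c34 lay just above the threshold of 20% and GV oocytes just below it. The peaks ran past start 4 in c34 and GV oocytes, while at E18.5 the peak stopped 4.80 kb short of it. H3K27me3 covered 51.4% of the body in c7 and 0% afterwards. The distant neighbours Ndn, Magel2 and Mkrn3, which are expressed from the paternal copy, were each covered to 100% by H3K27me3 in c7, c34, E18.5 and GV oocytes. Ube3a, which in neurons is expressed from the maternal copy, was covered by H3K36me3 to 61.9% in GV oocytes and 0% in c34.

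Plagl1 encodes a zinc finger transcription factor that restrains growth, at chr10:13090832-13131694 on the plus strand. Its start had an H3K4me3 peak of 2 kb in c13 and at E18.5, among the narrowest at these genes and below the median width of 4 kb in either list. In c34 and GV oocytes the nearest peaks lay 24.8 kb and 27.8 kb away. H3K36me3 covered 0% of the body in c13 and at E18.5 and 95.9% in c34 and GV oocytes, where the peaks had the same edges, 110 kb apart. H3K27me3 covered 100% in c7 and c13, 0% at E18.5 and 4.15% in c34 and GV oocytes. In both c34 and GV oocytes Plagl1 thus had no H3K4me3 at its start, and the same coverage by the other marks over its body.

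Impact encodes a regulator of the translational stress response and lies at chr18:12954690-12992950. H3K4me3 lay within 1 kb of its lower end in all 4 lists, with peaks of 3 kb in c13, 2 kb at E18.5, 35 kb in c34 and 29 kb in the GV oocytes, and its upper end only in c13. A separate peak lay inside the gene, from 17.3 to 20.3 kb above the lower end in c13 and from 16.3 to 20.3 kb at E18.5. The c34 peak began 14.7 kb outside the lower end and reached 20.3 kb into the gene, over that place, whereas the GV peak stopped at 12.3 kb. H3K36me3 covered 100% of the body in c13, c34 and GV oocytes and 0% at E18.5. The H3K36me3 peak was 3890 kb wide in c13, against 660 kb (c34) and 580 kb (GV oocytes). H3K27me3 covered 0% of the body at all 5 stages and 29.5% of the 10 kb beyond the upper end at each of them, so Impact bordered a block of it throughout.

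Grb10 encodes an adaptor that dampens insulin and growth factor signalling, at chr11:11930499-12037428 on the minus strand. It is expressed from the maternal copy in most tissues and from the paternal copy in neurons, where the inner start is used. Start 1 had H3K4me3 peaks of 4 kb in c13, 5 kb at E18.5, 4 kb in c34 and 3 kb in the GV oocytes. Start 2 lay in a peak of 3 kb in c34 and at E18.5, and 0.971 kb from a peak of 9 kb in c13. In GV oocytes its nearest peak lay 8.03 kb away, so here too only the upstream start was marked. Over the body, H3K36me3 coverage was 100% in c13, c34 and GV oocytes and 0% at E18.5, with peaks of 420 kb, 550 kb and 580 kb. H3K27me3 covered 100% in c7 and c13, 62.6% at E18.5 and 0% in c34 and GV oocytes. The neighbour Ddc, which makes dopamine and serotonin, kept H3K27me3 over 100% in c34 and had 0% in GV oocytes.

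Gnas encodes the stimulatory G protein alpha subunit and other products from several starts, at chr2:174284320-174346744 on the plus strand. Start 1 had H3K4me3 peaks of 23 kb in c13, 7 kb at E18.5, 6 kb in c34 and 6 kb in the GV oocytes. A peak of 21 kb, 7 kb and 14 kb in c13, c34 and E18.5 spanned both start 2 and start 3, which lie 2.26 kb apart. In GV oocytes a peak of 3 kb lay over start 3 only, its edge 1.25 kb from start 2. Between starts 1 and 2, an E18.5 peak ran from 9.68 to 20.7 kb past start 1. That stretch held no H3K4me3 peak in c34 and GV oocytes and was covered in part by the peak over start 1 in c13. H3K36me3 covered 100% of the body in c13, c34 and GV oocytes and 0% at E18.5, and its peak had the same edges in c34 and GV oocytes, 90 kb apart. In c13 the H3K36me3 peak was 12960 kb wide. H3K27me3 covered 100% in c7 and c13, 74.9% at E18.5 and 0% in c34 and GV oocytes.

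Igf2r encodes the receptor that clears insulin-like growth factor 2 and is expressed from the maternal copy. It lies at chr17:12682406-12769706 on the minus strand, and the Airn start is 28.4 kb inside it. The Igf2r start had H3K4me3 peaks of 43 kb in c13, 10 kb at E18.5, 13 kb in c34 and 13 kb in the GV oocytes. The Airn start lay in the 43 kb peak in c13, 0.69 kb from a 17 kb peak in c34 and in a 2 kb peak at E18.5, and 26.7 kb from any peak in GV oocytes. H3K36me3 covered 100% of Igf2r at all 4 stages, but the peaks were 2720 kb in c13 and 2700 kb at E18.5 against 160 kb (c34) and 290 kb (GV oocytes). The body was thus marked throughout, in domains of very different width. H3K27me3 covered 66.0% of the body in c13 and 0% in the other lists. That c13 peak was 1730 kb wide and ended 57.6 kb above the lower end of the gene.

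Kcnq1 encodes a potassium channel subunit of heart and inner ear, expressed from the maternal copy in the embryo. It spans chr7:143106877-143427050, and Kcnq1ot1, the antisense RNA whose promoter is the methylated region, starts 190 kb above its lower end. H3K4me3 covered 81.6% of the body in c13, 15.0% at E18.5, 0.976% in c34 and 1.29% in the GV oocytes. The body was mostly under H3K4me3 in c13 only. The lower end had a peak of 76 kb in c13, 11 kb at E18.5, 5 kb in c34 and 14 kb in the GV oocytes. The Kcnq1ot1 start lay in a peak of 102 kb in c13 and 6 kb at E18.5, while in c34 and GV oocytes the nearest peaks were 160 kb and 31.5 kb away. H3K36me3 covered 100% of the body in c13, c34 and GV oocytes and 0% at E18.5. The c13 peak of 20860 kb was the widest of that list, against 400 kb (c34) and 390 kb (GV oocytes). H3K27me3 covered 71.9% in c7, 84.4% in c13, 100% at E18.5, 30.3% in c34 and 2.20% in the GV oocytes. Cdkn1c and Ascl2, growth and placental regulators of the same cluster, were covered to 100% in all 5 lists.

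**Figure D4:**
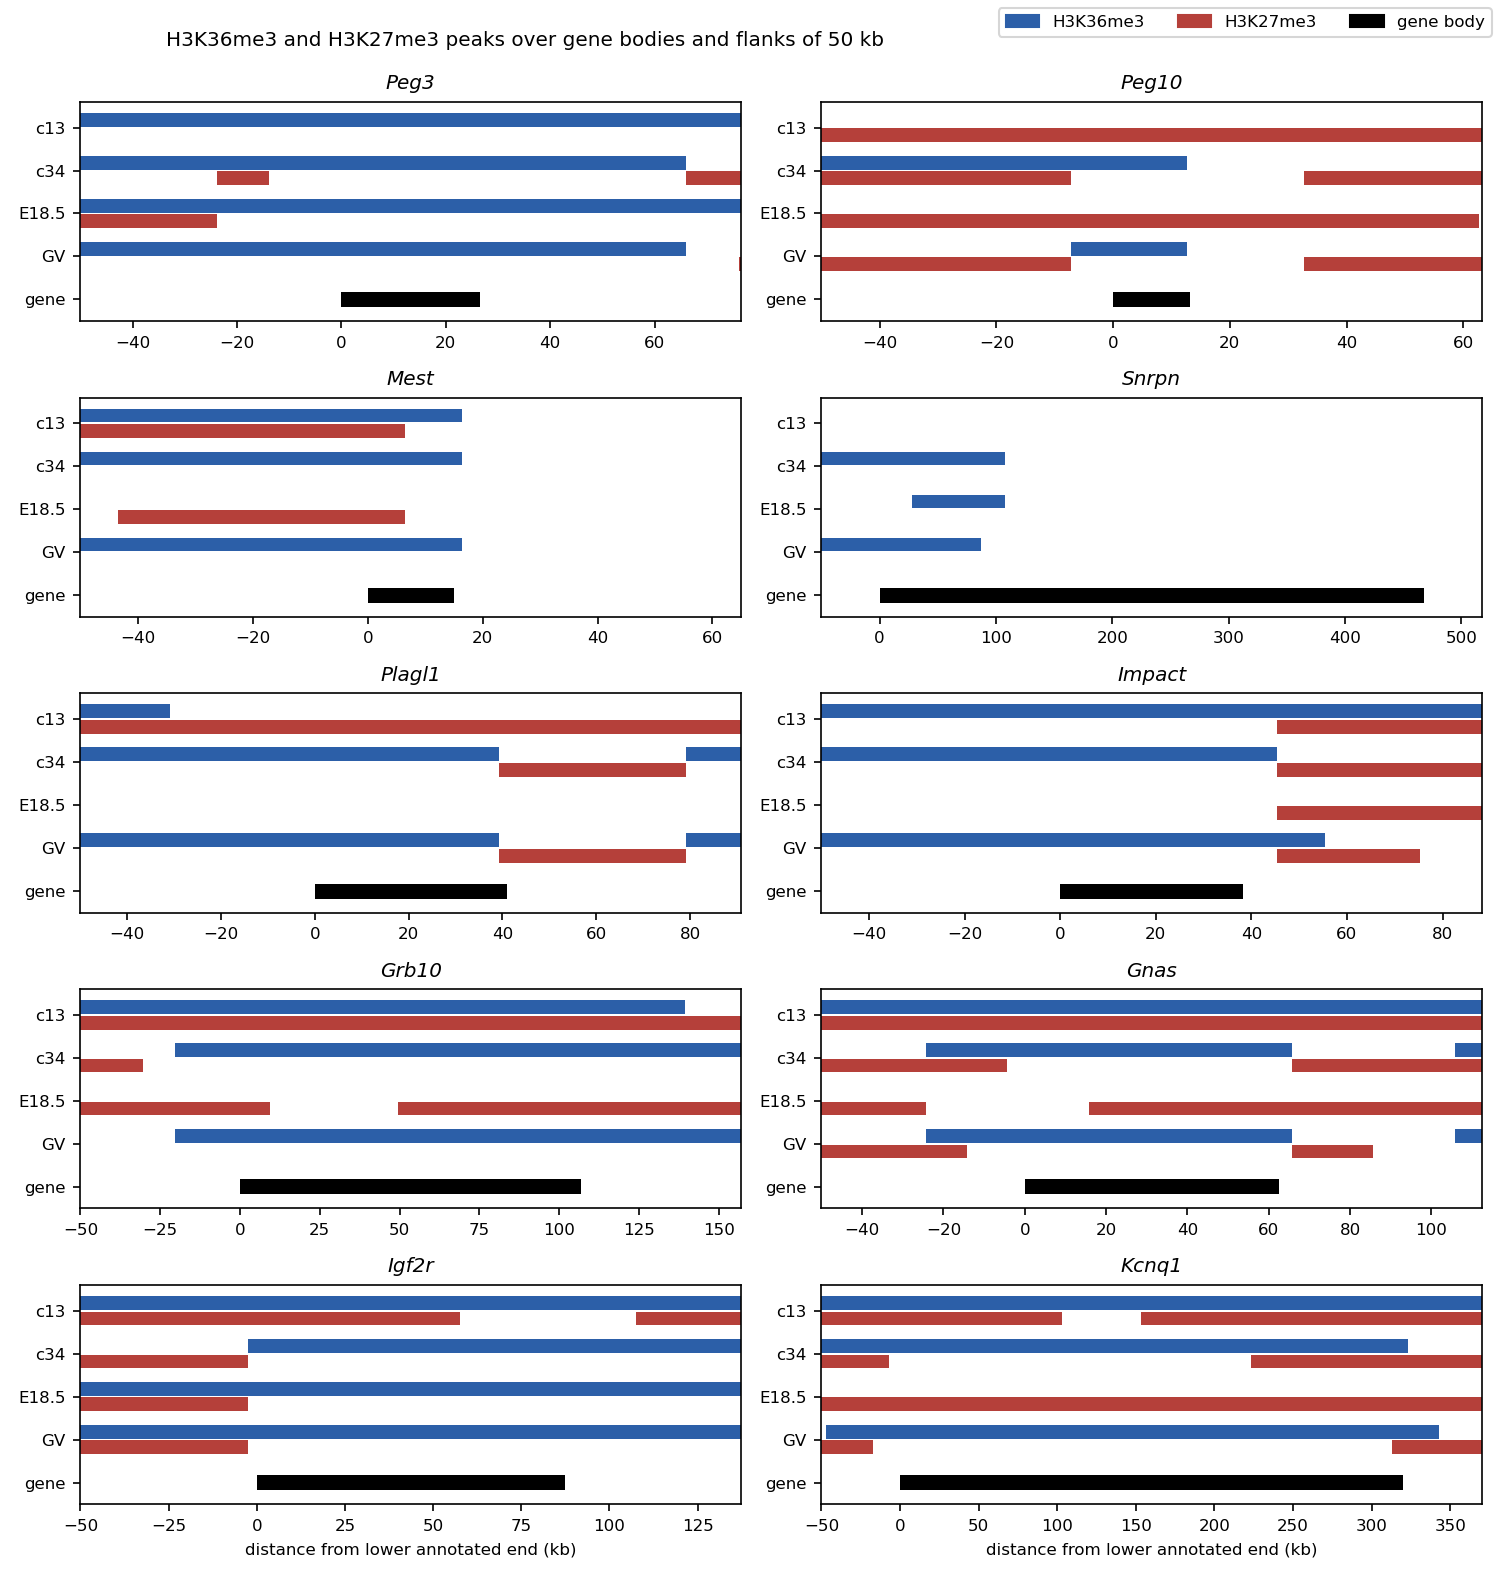
H3K36me3 (blue) and H3K27me3 (red) peaks over each gene body (black) and 50 kb on each side, by stage, as distance in kb from the lower annotated end. In c34 and GV oocytes blue covers the body or, at Snrpn, its lower part, and red lies outside or at one edge except at Kcnq1 in c34, where it overlaps blue over 30.3% of the body, whereas at E18.5 red covers Peg10 and Kcnq1 whole and blue covers Peg3 and Igf2r.

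Some edges of the H3K36me3 peaks over these genes met H3K27me3 directly. In c34 6 of 20 edges abutted an H3K27me3 peak with no gap (11.1% of all 11452 edges), and in GV oocytes 3 of 20 did (3.56% of 12372). Both counts rest on few edges, and the grid of 10 kb sets what counts as no gap. In c13 0 of 14 abutted (0.726%) and at E18.5 0 of 6 (1.03%).

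Of the 40 protein-coding neighbours in the same clusters, H3K27me3 covered at least 20% of the body of 29 in c34 and 22 in the GV oocytes, where it was called over 39.5% and 26.6% of all genes and over 1 and 0 of the 10. In the earlier lists it was called over 28, 25 and 21 of them in c7, c13 and E18.5 (41.4%, 54.2% and 35.3% of all genes). H3K36me3 was called over 27, 19, 12 and 19 of them in c13, c34, E18.5 and GV oocytes, where the all-gene shares were 67.8%, 63.5%, 22.1% and 62.2%. H3K4me3 was called at the start of 33, 26, 29 and 31 of them in that order, with 70.2%, 64.3%, 59.8% and 72.1% of all genes. Of 6 genes at paternally methylated loci, H3K36me3 was called over 4 in c34 and 3 in the GV oocytes and H3K27me3 over 5 and 4. Of 12 genes whose imprinting depends on maternal H3K27me3, such as Sfmbt2 and Gab1, H3K27me3 was called over 11 in c34 and 12 in the GV oocytes, and H3K36me3 over 6 and 1.

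The likeness of other genes was measured as the mean absolute difference in coverage from the median profile of the 10 genes over the 13 lists. For H3K4me3 this was coverage of 5 kb on each side of the start, and for the other marks coverage of the body. The closest were Gpr137 at 6.91 percentage points, Timm50 at 7.26, Ciart at 7.54, Zfyve19 at 7.60 and Cog7 at 7.76, against a median of 33.9 over all genes. They were picked as the smallest values among all other protein-coding genes, so lying below that median follows from the choice. Among the 10 genes themselves Grb10 was closest at 10.3 points and Snrpn farthest at 43.3.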

How the data were processed

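Per the labels, CATCH-seq libraries of 3 histone marks and input were made at 4 stages, and of H3K27me3 and input at the fifth, c7. The authors deposited 13 peak lists whose unit is other: intervals in base pairs without a height or score. Per the file headers each holds a chromosome, a start and an end. The submitters' processing notes name MACS2 2.1.1, SICER 0.0.41, Bowtie2 2.3.4.1, Trim Galore 0.4.1, Picard 2.18.23, SAMtools 1.7, deepTools 3.5.0, cutadapt 1.9.1 and bedtools 2.29.2. Not given in the sources used here are the caller of each list, its threshold, whether input was used and whether libraries were pooled.

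H3K4me3 was called from a peak within 1 kb of the gene start, and H3K36me3 and H3K27me3 from 20% of the annotated body. Starts within 100 bp were merged. Of 49 listed neighbours 46 were in the gene table. Th1l, an older symbol of Nelfcd, Zfp264 and Nespas were not found by name. The genes named were the 10 imprinted genes, those neighbours, the comparison and marker lists and the 5 most similar genes. The genes and lists were chosen with earlier results of these data known. Overlap arithmetic was tested on simulated data. Alternatives changed the start window, gene ends, body share, flanks and peak width. Input libraries and Y were not used here. Scripts ran under Python 3.11.15 (matplotlib 3.10.9, pandas 2.3.3, numpy 2.4.6).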

Additional observations from a re-analysis of the deposited data

How the results depend on the processing

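Of 60 counts recomputed under the alternatives, 52 stayed within 1.5 times the reported count and 8 moved. In GV oocytes, H3K4me3 at the gene start was called at 4 of the 10 genes with only peaks at least as wide as the median. At the 9 starts at methylated regions in GV oocytes it was called at 0 with a peak over the start itself and at 3 with a peak within 5 kb. Without peaks of 1 Mb or more, H3K36me3 was called over 2 gene bodies in c13 and 1 at E18.5, and over 2 and 1 of the 9 starts. With at least 50% of the body, H3K27me3 was called over 0 genes in c34. Shares of all genes or starts are not given under the alternatives, so whether such moves are particular to these genes is unknown. Of 430 calls of single genes, 408 were kept and 22 changed. The alternatives at the 9 starts, and any start of a gene, were chosen after seeing the data. No paired analysis was possible because each stage and mark has 1 deposited list and no replicate lists. Depth, threshold and grid limit what a missing peak means, and a place without a peak may hold the mark below the threshold.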
